A study of Mus musculus with 661 samples.

Results

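Platelet-derived growth factors are secreted dimers that act through a pair of receptor tyrosine kinases, PDGFRα and PDGFRβ. PDGF-A and PDGF-C act mainly through PDGFRα, PDGF-B binds both receptors, and PDGF-D acts mainly through PDGFRβ. In blood vessels PDGF-B from endothelial cells recruits PDGFRβ-bearing pericytes, and in bone marrow PDGFRα is a common surface marker of mesenchymal stromal cells. The genes described here are the ligands Pdgfa, Pdgfb, Pdgfc and Pdgfd and the receptors Pdgfra and Pdgfrb, taken by symbol from the count table. All 6 were present among its 45808 gene symbols.

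Single stromal cells were sorted from the bones of untreated C57BL/6 wild type mice, to compare the marrow niche between ages. Young mice were about 2 months old and old mice about 24 months old. There were 336 young and 325 old cells from 6 sorted populations, each negative for Ter119 and CD45. The endosteum, the inner bone surface, gave MSC-S, which were CD31− with both Sca-1 and CD51 present. It also gave a pair of CD31−, Sca-1−, CD51+ and LepR− osteoprogenitor populations, of which mOPr were PDGFRα+ and OPr were PDGFRα−, and the arteriolar endothelial cells, AEC, which were CD31+ with high Sca-1 and low CD105. From the central marrow came MSC-L, which were positive for LepR, PDGFRα and CD51 and negative for CD31 and Sca-1, and the sinusoidal endothelial cells, SEC, which were CD31+ with low Sca-1 and high CD105. PDGFRα protein was therefore part of the gate for MSC-L, mOPr and OPr, and not for MSC-S, AEC or SEC.

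Young and old cells numbered 53 and 58 for MSC-L, 59 and 59 for MSC-S, 26 and 26 for mOPr, 44 and 29 for OPr, 84 and 82 for AEC, and 70 and 71 for SEC. Total counts per cell ran from 58034 to 1503374, and the group medians from 306315 in old SEC to 781968 in old OPr. By the study's account 3 young and 4 old mice gave these cells, but the labels assign no cell to a mouse. Each population at each age was therefore treated as 1 sample, no difference was tested, and no p-value is given. A level, in CPM, is the counts of a gene summed over the cells of a group, divided by the summed nuclear gene counts and scaled to counts per 1e6. Brackets after a level hold its exact Poisson 95% interval, brackets after a share of cells an exact Clopper-Pearson 95% interval, and brackets after a log2 ratio an exact conditional binomial 95% interval. These intervals cover counting error alone, since reads without molecular identifiers are not independent molecules and the spread between mice is unknown. A cell is said to carry a gene at 10 CPM or more. The library numbers in the cell names fall into 3 ranges, whose meaning the labels do not give. Range 3 held all SEC, the mesenchymal cells were in ranges 1 and 2, and AEC were in all 3.

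The sorted labels were first set beside marker transcripts. All 12 endothelial markers reached 10 CPM in young and old AEC and SEC, and at most 2 of 12 did in a mesenchymal group. Endothelial marker levels summed to 13439 and 14211 CPM in young and old AEC and to 11076 and 12319 CPM in young and old SEC, against at most 127 CPM in a mesenchymal group, that of young mOPr. Of the 12 mesenchymal markers, 11 reached 10 CPM in each mesenchymal group, with sums from 15848 CPM in young OPr to 54671 CPM in young MSC-L, and Twist2 at 0 in young OPr. AEC and SEC were not free of them, with 8 to 10 of 12 at 10 CPM and sums from 2909.6 to 6089.8 CPM, led by Cxcl12, while Twist2 was at 0 in AEC of both ages and in old SEC. Both lineages also held mural markers, at sums from 448 CPM in young MSC-S to 2787 CPM in old SEC.

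Old OPr stood apart from the other mesenchymal groups. In it 8 of 29 cells carried at least 7 of 15 hematopoietic markers, and 14 of the 15 reached 10 CPM, with a sum of 12766 CPM led by S100a9 and Cd79a at 0. The sum was 381 CPM in young OPr. Ptprc, which encodes the CD45 antigen used to remove blood cells, stood at 0.136 CPM in young OPr and 384 CPM in old OPr, and at 0.187 CPM in old OPr without these cells. Values for old OPr include these cells unless stated. Without them old OPr had Pdgfa at 47.5 CPM, Pdgfc at 16.8 CPM and Pdgfd at 26.03 CPM.

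Among the ligands, Pdgfb was sharply divided between endothelial and mesenchymal cells. The gene, at chr15:79995874-80014977 (GRCm38, minus strand), encodes the ligand by which endothelium attracts mural cells. Its level was 324 CPM [318, 329.7] in young and 369 CPM [363, 376] in old AEC. In SEC it was 198 CPM [192, 204] in young and 188 CPM [183, 194] in old cells. AEC were above SEC at both ages. It was carried by 79.8% [69.6, 87.7] of young AEC, 76.8% [66.2, 85.4] of old AEC, 70% [57.9, 80.4] of young SEC and 66.2% [53.99, 77] of old SEC, shares whose intervals overlap. Single AEC ran from 0 to 1424 CPM with a median of 200.4 CPM in young mice, and from 0 to 2341 CPM with a median of 191 CPM in old mice. The median SEC was at 122 CPM in young and 37.6 CPM in old mice, so the medians of old and young SEC lay further apart than the summed levels.

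In mesenchymal cells Pdgfb was near 0. No count fell in young or old mOPr, which allows a level of up to 0.206 and 0.2403 CPM from 3 counts. OPr held 1 count at each age, and MSC-S held 2 counts in young and 3 in old cells. MSC-L reached 32.97 CPM [30.7, 35.4] in young and 3.69 CPM [2.89, 4.65] in old cells, but 1 cell held 99.1% of the young counts and 1 cell 98.6% of the old counts. Without these cells the levels were 0.314 and 0.0523 CPM. The deposited clustering placed both in cluster M5. The old cell had Pecam1 at 313 CPM, carried 3 of 12 endothelial markers and was among 8 old MSC-L that carried at least 3 of 6 megakaryocyte markers. The young cell carried 0 of 12 endothelial markers, and both cells carried 7 of 12 mesenchymal markers.

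Pdgfd encodes a ligand that is secreted in latent form and released by proteases, and lies at chr9:6168584-6378850 on the plus strand. It was highest in AEC, at 112 CPM [108, 115] in young and 174 CPM [169, 178] in old cells, where 55.95% [44.7, 66.8] and 74.4% [63.6, 83.4] of cells carried it. SEC had 19.02 CPM [17.2, 20.9] when young and 77.5 CPM [73.8, 81.4] when old. MSC-L had 49.9 CPM [47, 52.8] and 38.7 CPM [35.96, 41.5]. Unlike Pdgfb, then, Pdgfd was present in both lineages. In the endosteal mesenchyme single cells made up much of the level. It was 59.6 CPM in young and 42.5 CPM in old mOPr, and 28.7 and 16.5 CPM without the highest cell. OPr had 27.4 and 19.6 CPM, or 15.6 and 6.94 CPM without the highest cell, and MSC-S had 11.9 and 3.75 CPM, or 9.36 and 2.27 CPM. The median cell was at 0 CPM in every group but AEC, where it was 19.9 CPM in young and 115 CPM in old mice.

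Pdgfa, which encodes a PDGFRα ligand, was found in all populations. It lies at chr5:138976014-138997370 on the minus strand. In young and old cells it reached 57.7 CPM [54.7, 60.95] and 39.7 CPM [37, 42.6] in MSC-L, and 41.01 CPM [38.9, 43.2] and 28.9 CPM [27.2, 30.6] in MSC-S. Levels were 53.2 CPM [49.5, 57.1] and 100.2 CPM [94.7, 106] in mOPr, and 66.4 CPM [63.5, 69.4] and 35.6 CPM [33.1, 38.2] in OPr. AEC had 83.4 CPM [80.4, 86.5] and 37.8 CPM [35.8, 39.9], and SEC the least, 13.7 CPM [12.2, 15.3] and 18.3 CPM [16.5, 20.3]. Fewer cells carried it than lacked it in all 12 groups, from 7.04% [2.33, 15.7] of old SEC to 46.2% [26.6, 66.6] of young mOPr. In SEC cluster E1, which the study named doublets, held 63% of the young and 33.9% of the old counts. The other old SEC counts lay in cells with megakaryocyte markers, described below. The order of groups rests partly on single cells. Without its highest cell, the level was 33.6 CPM in young MSC-L, 68.6 CPM in old mOPr, 53.04 CPM in young AEC and 12.02 CPM in old SEC. Among neighbours in the order of levels, the intervals overlap for young MSC-L and young mOPr, young MSC-S and old MSC-L, old MSC-L and old AEC, and old AEC and old OPr. Part of the Pdgfa exons overlaps the gene 6330403L08Rik, and counting without regard to strand cannot tell their reads apart. Exons of Pdgfc and Pdgfra also share bases with other genes of the count table, 147 for Pdgfc and 30 for Pdgfra.

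Pdgfc, like Pdgfd activated by proteases, was a ligand of the endosteal mesenchyme in these cells. It lies at chr3:81036416-81214040 on the plus strand. MSC-S had 24.6 CPM [22.9, 26.3] in young and 13.6 CPM [12.5, 14.8] in old cells, the latter 8.87 CPM without its highest cell. In mOPr it was 28.7 CPM [25.97, 31.5] and 10.3 CPM [8.63, 12.3], the latter 3.42 CPM without its highest cell, and in OPr 7.09 CPM [6.16, 8.12] and 12.7 CPM [11.2, 14.3], or 3.58 and 4.58 CPM without the highest cells. The central marrow and endothelial sorts nearly lacked it, with 1 count in young and 2 in old MSC-L, 3 at each age in AEC, and 3 and 5 in SEC. Carrying cells were few even where it was highest, at 30.8% [14.3, 51.8] of young mOPr and 28.8% [17.8, 42.1] of young MSC-S.

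Levels of different genes can be set side by side once divided by exon length. Per kilobase of exon, the ligand levels of young AEC were 77.8 CPM per kb for Pdgfb, 35.4 for Pdgfd and 26.7 for Pdgfa. Old AEC had the same order, with 88.8 CPM per kb for Pdgfb, 55.02 for Pdgfd and 12.1 for Pdgfa. In young MSC-S the levels were 13.1 CPM per kb for Pdgfa, 4.83 for Pdgfc, 3.77 for Pdgfd and 0.0139 for Pdgfb. Per length, the leading ligand transcript was thus Pdgfb in AEC and Pdgfa in young MSC-S. In young MSC-L Pdgfa had 18.5 and Pdgfd 15.8 CPM per kb. Their order turned without the highest cell of each gene, at 33.6 CPM for Pdgfa and 34.97 CPM for Pdgfd before division by length. The exon lengths were 3.119 and 3.154 kb.

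**Figure D1:**
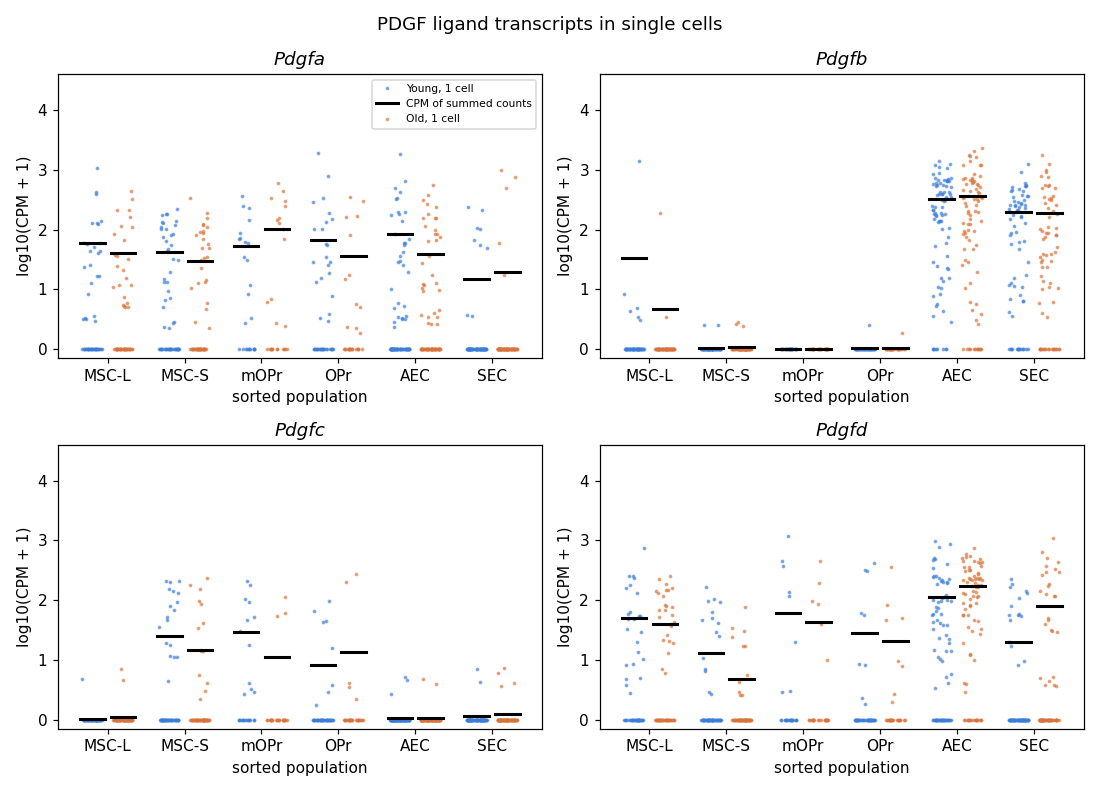
Ligand transcripts in single cells of the 6 sorted populations, on a log10(CPM + 1) axis. Each point is 1 cell, young in blue and old in orange, and each black bar is the level of the summed counts, with Pdgfb at 324 and 369 CPM in young and old AEC and at 0 CPM in mOPr.

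The receptor transcripts were divided between the lineages the other way round. Pdgfra lies at chr5:75152292-75198215 on the plus strand. In young and old cells its level was 599.5 CPM [589.5, 609.7] and 697 CPM [686, 709] in MSC-L, 629 CPM [621, 638] and 609.8 CPM [602, 618] in MSC-S, and 464 CPM [453, 475] and 1123 CPM [1104, 1142] in mOPr. OPr had 93.3 CPM [89.8, 96.9] and 193 CPM [187, 199]. In each group of MSC-L, MSC-S and mOPr at least 88.1% [77.1, 95.1] of cells carried it, the share of young MSC-S, against 27.3% [14.96, 42.8] of young and 34.5% [17.9, 54.3] of old OPr. MSC-S, which were not sorted on PDGFRα, thus had a transcript level near that of MSC-L, which were, and the intervals of young MSC-L and old MSC-S overlap. The median cell was at 481 and 484 CPM in young and old MSC-S and at 491 and 562 CPM in young and old MSC-L.

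The PDGFRα gate divides mOPr from OPr, so the transcript can be read beside it. Single young mOPr ran from 0 to 1922 CPM with a median of 348 CPM, and single young OPr from 0 to 1009 CPM with a median of 0.501 CPM. Old mOPr ran from 0 to 3399 CPM with a median of 949.6 CPM, and old OPr from 0 to 1003 CPM with a median of 1.09 CPM. The cells overlapped at both ages while the medians lay far apart. The log2 ratio of mOPr over OPr was 2.31 [2.25, 2.38] in young and 2.54 [2.49, 2.59] in old cells. It was 0.96 in range 1 and 4.70 in range 2 of the library numbers in young cells, and 2.35 and 2.77 in old cells, so its sign held in each range and its size in young cells did not. Without the 8 cells with hematopoietic markers, old OPr had 257 CPM and the old log2 ratio was 2.13.

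Pdgfra counts in OPr, the PDGFRα− gate, came mainly from cells that the deposited clustering placed with MSC-L, in clusters M1 and M2. In young OPr, 3 cells in M1 held 80.3% of the counts, at 722 CPM. In old OPr, 7 cells in M1 held 81.04% of the counts, at 512 CPM, and 3 cells in M2 another 18.3%, at 246 CPM. The 26 OPr in M3 and M4 together had 3.18 CPM [2.41, 4.11]. Cluster M5 holds cells of both gates. In it, young mOPr (7 cells) had 362 CPM [343, 383] and young OPr (14 cells) 40.3 CPM [35.5, 45.6], the latter 23.5 CPM without its highest cell, so the transcript differed in the direction of the gate inside 1 cluster. Old mOPr in M5 (12 cells) had 1259 CPM [1230.1, 1287] and old OPr (15 cells) 2.97 CPM [1.96, 4.33], but 8 of the latter were the cells with hematopoietic markers.

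Lepr, whose protein was gated out of mOPr and OPr, was read in the same cells. Its level was 3160.4 CPM in young and 3239 CPM in old MSC-L. In the gates that exclude the protein it was 144 and 1047 CPM in young and old mOPr and 362 and 1333 CPM in young and old OPr. In young mOPr 10 of 26 cells carried it, the median cell was at 2.26 CPM, and the level was 86.3 CPM without the highest cell. Each of these levels was below that of MSC-L of the same age, though parts of old OPr came near it. Old OPr had 2426 CPM in range 1, where old MSC-L had 2838 CPM, and 595 CPM in range 2. It had 1778 CPM without the 8 cells with hematopoietic markers and 2902 CPM [2868, 2936] in its 10 cells of M1 and M2. All 10 old OPr that carried Pdgfra also carried Lepr, as did 7 of the 12 young OPr that carried Pdgfra. Ly6a, which encodes the Sca-1 antigen, was at 912 and 1304 CPM in young and old MSC-S and at most 20.7 CPM in MSC-L, mOPr and OPr. Ly6a was thus low in the mesenchymal sorts whose gate excluded its protein. In the mesenchymal groups Itgav, which encodes CD51, lay between 63.9 CPM in old OPr and 195 CPM in old MSC-L.

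Pdgfrb, at chr18:61045150-61085061 on the plus strand, encodes the receptor that pericytes use. In young and old cells its level was 1419 CPM [1403, 1434] and 1198 CPM [1183, 1214] in MSC-L, and 145 CPM [141, 149] and 213 CPM [208, 217] in MSC-S. It was 301 CPM [292, 310.3] and 874 CPM [857, 890.2] in mOPr, and 426 CPM [418, 433] and 446 CPM [437, 455] in OPr. Over all cells MSC-L thus had the highest level at both ages. In old cells this did not hold in range 1 of the library numbers, where mOPr had 1263 CPM and MSC-L 934 CPM. In range 2 old mOPr had 633 CPM and old MSC-L 1342 CPM. Nearly every MSC-L carried Pdgfrb, 98.1% [89.9, 99.95] of young and 100% [93.8, 100] of old cells. In OPr 38.6% [24.4, 54.5] of young and 48.3% [29.4, 67.5] of old cells did, with the median cell at 1.67 and 2.84 CPM, so the OPr level came from a subset of cells. Without the 8 cells with hematopoietic markers old OPr had 595 CPM.

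The balance of the receptors per exon length differed between the mesenchymal populations. Young MSC-L had Pdgfrb at 259 and Pdgfra at 59.8 CPM per kb, and young OPr had Pdgfrb at 77.7 and Pdgfra at 9.31 CPM per kb. Young MSC-S had Pdgfrb at 26.5 and Pdgfra at 62.8 CPM per kb, and young mOPr had 54.99 and 46.3 CPM per kb. On this scale Pdgfrb exceeded Pdgfra in young MSC-L, OPr and mOPr, and Pdgfra exceeded Pdgfrb in young MSC-S.

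In the endothelial sorts the receptors came from few cells. Pdgfra was at 5.54 CPM [4.78, 6.38] in young and 11.3 CPM [10.2, 12.5] in old AEC, and at 40.3 CPM [37.7, 43.1] in young and 50.1 CPM [47.1, 53.3] in old SEC. Without the highest cell these levels were 0.8403 and 6.72 CPM in AEC and 30.4 and 21.4 CPM in SEC. Pdgfrb was at 54.02 CPM [51.6, 56.5] and 33.4 CPM [31.5, 35.4] in AEC and at 126 CPM [121, 130.3] and 141 CPM [136, 146] in SEC, where the old levels were 18.5 CPM in AEC and 88.2 CPM in SEC without the highest cell. Most endothelial cells carried neither receptor, 76 of 84 young and 73 of 82 old AEC, and 54 of 70 young and 62 of 71 old SEC. Cluster E1, which the study named doublets, and E2, which it named pericytes, held 94.9% of the young and 81.3% of the old Pdgfrb counts in SEC, from 9 and 5 cells. In AEC they held 66.3% of the young and 46.1% of the old Pdgfrb counts, from 5 and 3 cells. Of the Pdgfra counts in SEC they held 87.4% in young and 88.6% in old cells, but in AEC 85.5% in young and 0% in old cells, so the old AEC counts of Pdgfra lay outside both clusters. Pdgfra and Pdgfrb were among the genes that guided the making of E1 and E2, so these shares are a description. Without both clusters, left out after seeing the data, Pdgfrb was at 7.57 and 28.6 CPM in young and old SEC and at 19.5 and 18.7 CPM in young and old AEC. Pdgfra was then at 5.96 and 6.202 CPM in young and old SEC and at 0.8599 and 11.7 CPM in young and old AEC.

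**Figure D2:**
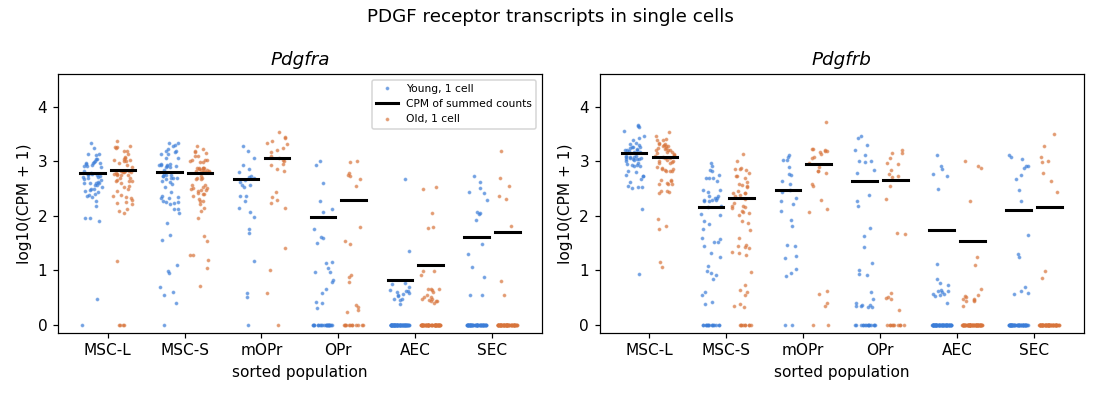
Receptor transcripts in single cells of the 6 sorted populations, on a log10(CPM + 1) axis. Each point is 1 cell, young in blue and old in orange, and each black bar is the level of the summed counts, with Pdgfra at 464 CPM in young mOPr and 93.3 CPM in young OPr and Pdgfrb at 1419 CPM in young MSC-L.

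Counting both receptors in the same cell set MSC-L apart from the other mesenchymal populations. Both were carried by 96.2% [87.02, 99.5] of young and 93.1% [83.3, 98.1] of old MSC-L. The share was 54.2% [40.8, 67.3] in young and 71.2% [57.9, 82.2] in old MSC-S, 69.2% [48.2, 85.7] and 65.4% [44.3, 82.8] in mOPr, and 15.9% [6.64, 30.1] and 34.5% [17.9, 54.3] in OPr. The intervals of MSC-S and mOPr overlap at both ages. Pdgfra without Pdgfrb was the state of 20 of 59 young and 15 of 59 old MSC-S and of no MSC-L. It was also that of 5 of 26 young and 6 of 26 old mOPr and of 5 of 44 young OPr. Pdgfrb without Pdgfra was found in 10 of 44 young and 4 of 29 old OPr. No receptor was carried by 22 of 44 young and 15 of 29 old OPr, the 8 cells with hematopoietic markers among the latter, and every mOPr carried at least 1.

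Ligands and receptors also met in single cells. A ligand together with a receptor was carried by 30 of 53 young and 33 of 58 old MSC-L, 38 of 59 young and 26 of 59 old MSC-S, and 17 of 26 young and 12 of 26 old mOPr. In OPr the number was lower, 13 of 44 young and 9 of 29 old cells. Pdgfrb was carried together with Pdgfd by 17 young and 24 old MSC-L, and Pdgfra with Pdgfa by 21 young and 21 old MSC-S. Among AEC, 80 of 84 young and 76 of 82 old cells carried a ligand, and 8 and 8 of them a receptor as well. AEC thus held ligand transcripts mostly without receptor transcripts. Pdgfb and Pdgfd were carried together by 36 young and 48 old AEC and by 12 young and 14 old SEC.

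The deposited clusters show these genes at a finer scale. They were built from all genes of the same cells, and Pdgfra, Pdgfrb and Pdgfd guided endothelial clusters, so levels by cluster are a description. The mesenchymal clusters run from M1 to M16 and the endothelial ones from E1 to E7, and M10, M11 and M13 hold 1 cell each and are only counted. M1 and M2, which the study grouped with MSC-L, had Pdgfrb at 1422 CPM [1410.5, 1433] and 1033 CPM [1018, 1047] and Pdgfra at 676 CPM [668, 684] and 628 CPM [617, 639.9]. Among the clusters grouped with OPr, the 16 cells of M3, all sorted as OPr, had Pdgfra at 2.88 CPM [1.96, 4.09] and Pdgfrb at 1.77 CPM [1.06, 2.76], each carried by 1 cell. M3 was therefore nearly without receptor transcripts, while 7 of its cells carried Pdgfa. M4 had 207 CPM of Pdgfrb, of which 1 of 13 cells held 52.7% of the counts, and 109.7 CPM without it. M5 had 368 CPM of Pdgfra and 322 CPM of Pdgfrb, carried by 28 and 30 of 65 cells.

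The clusters grouped with MSC-S shared Pdgfra and differed in Pdgfrb and the ligands. In those of at least 4 cells, Pdgfra was carried by 82.4% to 100% of cells, at levels from 204 CPM in M15 to 949 CPM in M8. Pdgfrb ran from 35.9 CPM [33.6, 38.3] in M16, where all 36 cells carried Pdgfra, to 428 CPM [409.5, 447] in M8. Pdgfc was highest in M14, at 126 CPM [112, 140.5] over 4 cells, and next in M15, at 54.9 CPM [50.8, 59.2] over 17 cells, all of them young. Pdgfa was carried by 26 of the cells of M16 and by no cell of M7 or M9. In M9, made up of 10 old cells, none of the 4 ligands exceeded 0.358 CPM.

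Pdgfb was present in each of the endothelial clusters E3 to E7, among which Pdgfd was lowest in E6 and Pdgfa in E7. Pdgfb was at 311 CPM in E3 and 326 CPM in E4, which the study grouped with AEC, 553 CPM in E5, 326 CPM in E6 and 186 CPM [181, 191] in E7, which it grouped with SEC. The order of median cells was another, with 149 CPM in E5, below 190 CPM in E3, 203 CPM in E4 and 235 CPM in E6. In E7 the median cell was at 60.3 CPM. Pdgfd was at 207 CPM [202, 213] in E3, 152 CPM [147, 156] in E4, 72.5 CPM in E5, 14.99 CPM in E6 and 31.6 CPM in E7. Pdgfa was at 93.6 CPM in E3, or 54.5 CPM without the cell that held 43.03% of the counts, and 1.21 CPM [0.855, 1.66] in E7, where 1 of 105 cells carried it. The 8 cells of E2 had Pdgfrb at 785 CPM [756, 815], or 516 CPM without the highest cell, a single count of Pdgfra, and all 10 mural markers at 10 CPM, summing to 32929.8 CPM with Acta2 at 14588 CPM. The 14 cells of E1 had Pdgfra at 373 CPM and Pdgfrb at 813 CPM beside Lepr at 3060.4 CPM. In them 11 of 12 mesenchymal and 12 of 12 endothelial markers reached 10 CPM, summing to 32968 and 5159 CPM.

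**Figure D3:**
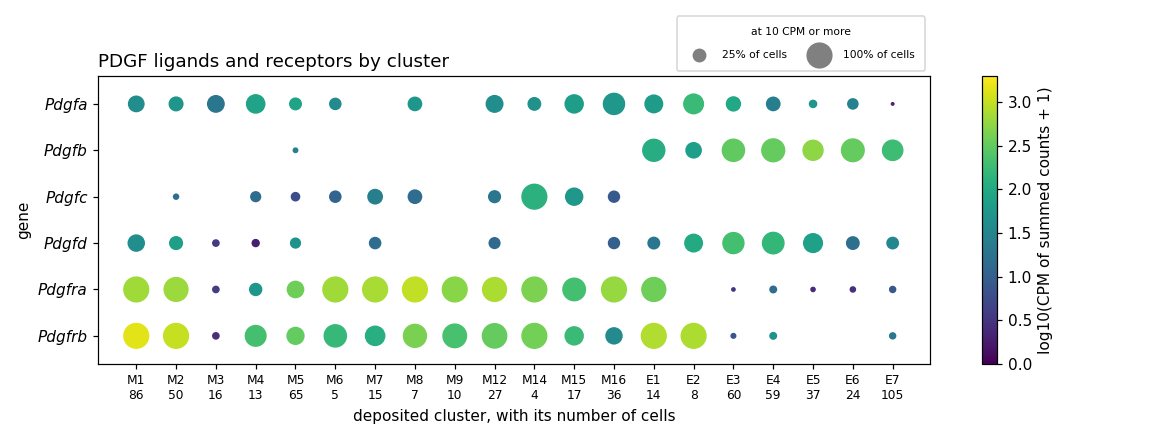
Ligands and receptors in the deposited clusters of at least 4 cells, with the number of cells under each name. Dot area is the share of cells at 10 CPM or more and colour is log10(CPM + 1) of the summed counts, with Pdgfrb at 1422 CPM in M1 and 1.77 CPM in M3 and Pdgfb at 553 CPM in E5.

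Between ages a gene was counted as past 2-fold when its level differed at least 2-fold and it had at least 100 counts over both ages in at least 5 cells. In each population 5 of the 6 members had enough counts, Pdgfc falling short in MSC-L, AEC and SEC and Pdgfb in MSC-S, mOPr and OPr. In MSC-L 1 member, Pdgfb, was past 2-fold and lower in old cells, against 28.2% of all genes with enough counts, 15.4% higher and 12.8% lower. In MSC-S 1 member, Pdgfd, was lower, against 23.7% of all genes, 10.4% higher and 13.3% lower. In mOPr 3 members were past 2-fold, Pdgfra and Pdgfrb higher and Pdgfc lower, against 46.5% of all genes, 25.8% higher and 20.7% lower. In OPr 1 member, Pdgfra, was higher, against 48.3% of all genes, 27.2% higher and 21.1% lower. In AEC Pdgfra was higher and Pdgfa lower, 1 member each way, against 25% of all genes, 11.1% higher and 13.9% lower. In SEC 1 member, Pdgfd, was higher, against 23.4% of all genes, 14.6% higher and 8.8% lower. Beside such shares, counts of 1 to 3 of 5 say nothing particular about these genes.

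In mOPr both receptors were higher in old cells. Pdgfra was 2.42-fold higher, a log2 ratio of 1.28 [1.23, 1.32], and Pdgfrb 2.9002-fold higher, a log2 ratio of 1.54 [1.49, 1.59]. Their log2 ratios were 1.93 and 2.13 in range 1 of the library numbers and 0.79 and 1.02 in range 2, higher in both ranges but short of 2-fold for Pdgfra in range 2. The old and young cells lay in different clusters, with 2 young mOPr in M2 and none in M1, against 10 old mOPr in M2 and 4 in M1. Of the young mOPr, 16 lay in the clusters grouped with MSC-S, M6 to M16, with Pdgfra at 510.2 CPM [496, 525] and Pdgfrb at 152 CPM [145, 161], and no old mOPr lay there. Within M5, Pdgfrb was at 559.8 CPM [535, 585] in 7 young and 392 CPM [376, 408] in 12 old mOPr, the latter 236 CPM without its highest cell, while Pdgfra there was higher in old cells, as given above. In M2 Pdgfrb was at 1136 CPM [1059, 1217] in young and 948 CPM [919.7, 976] in old mOPr, and Pdgfra at 287 CPM [249, 329] and 958 CPM [930.2, 987]. Of the 4392 Pdgfra counts of old mOPr in M2, 1 cell at 3399 CPM held 2154. Within both clusters Pdgfrb thus had the opposite direction and Pdgfra the same. The summed level of the mural markers was also higher in old mOPr, with 5 of 10 at 10 CPM in young and 8 of 10 in old mOPr. They summed to 545 CPM in young mOPr, led by Cspg4 and with Rgs5 at 0, and to 2533 CPM in old mOPr, led by Acta2 at 1146 CPM and with none at 0. The list was not uniform, as Cspg4 was at 346 and 111 CPM and Kcnj8 at 13.2 and 1.602 CPM, both lower in old mOPr. The part of the cluster make-up and of the cells with mural markers in the differences was not tested. Lepr was 7.26-fold higher in old mOPr. Pdgfc had a log2 ratio of −1.47 [−1.77, −1.18], with at most −5.05 in range 1, where old cells had no count, and −1.10 in range 2, and most of its old level came from 1 cell. Scaling by median-of-ratios size factors in place of total counts shifted all log2 ratios by −0.13 in mOPr and −0.17 in OPr.

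In the other mesenchymal sorts single members passed 2-fold without holding in every setting. Pdgfra in OPr had a log2 ratio of 1.05 [0.98, 1.12], with 0.54 in range 1 and 2.71 in range 2. Old and young OPr also lay in different clusters, with 3 of 44 young and 10 of 29 old cells in M1 and M2. Within M1, M4 and M5, which held both ages, the direction was the opposite. In M1 Pdgfra was at 722 CPM [692, 753] in 3 young and 512 CPM [494, 529] in 7 old OPr, and no young OPr lay in M2. In M4 it was at 4.68 CPM [3.06, 6.86] in 7 young and 0.514 CPM [0.01301, 2.86] in 3 old cells, M3 held 1 old cell without a count, and the levels of M5 were given above. The part of the cluster make-up in the difference was not tested. The log2 ratio was 1.46 without the cells with hematopoietic markers and 0.88, short of 2-fold, with size factors, which took Pdgfa in OPr from −0.90 to −1.07, past 2-fold. The summed level of the mural markers was higher in old OPr too, with 5 of 10 at 10 CPM in young and 7 of 10 in old OPr. They summed to 809.9 CPM in young OPr, led by Cspg4 and with Kcnj8 at 0, and to 2688 CPM in old OPr, led by Acta2 at 1327 CPM and with none at 0. Here Cspg4, at 685 and 113 CPM, Abcc9, at 14.6 and 4.63 CPM, and Rgs5, at 6.44 and 5.098 CPM, were lower in old cells, and the part of the mural markers in the result was not tested. Pdgfc in OPr went from 0.84 to 1.24, past 2-fold, without the cells with hematopoietic markers, but was at most −4.82 in range 1, where old cells had no count, and 2.10 in range 2. Pdgfd in MSC-S had a log2 ratio of −1.66 [−1.95, −1.39], but −5.48 in range 1 and 0.43 in range 2, so its direction was not the same in both. The direction of Pdgfd also differed between ranges 1 and 2 in mOPr, at −4.54 and 0.15, and in OPr, at −2.72 and 0.33. Over all cells Pdgfd was short of 2-fold in these sorts, at −0.49 in each. The log2 ratio of Pdgfb in MSC-L was −3.16 [−3.53, −2.81] and rested on the single cells described above. The other receptor ratios of these sorts were short of 2-fold, with Pdgfra at log2 ratios of 0.22 in MSC-L and −0.05 in MSC-S, and Pdgfrb at −0.24 in MSC-L, 0.55 in MSC-S and 0.07 in OPr. With size factors Pdgfra in MSC-S turned to 0.03 and Pdgfrb in OPr to −0.10. Pdgfrb in OPr was −0.47 in range 1 and 1.41, past 2-fold, in range 2, so its direction differed between the ranges.

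Among endothelial cells Pdgfd in SEC was 4.08-fold higher in old mice, a log2 ratio of 2.03 [1.87, 2.19]. All SEC came from range 3 of the library numbers, so no other range can be set beside it. Of the old SEC, 2 lay in E3 and 6 in E4, where no young SEC lay, and they held 23.1% and 36.8% of the old Pdgfd counts. Within E7, Pdgfd was at 20.6 CPM [18.6, 22.9] in 59 young and 44.7 CPM [41.2, 48.5] in 44 old SEC. In E6 it was at 29.1 CPM [17.3, 46.02] in 2 young and 19.04 CPM [14.7, 24.2] in 12 old SEC, and in E1 at 8.19 CPM [5.4001, 11.9] in 9 young SEC and without a count in 4 old SEC. The Pdgfd difference thus had the same direction within E7, which held most SEC, and not within E1 or within E6, where the intervals overlap. Ly6a, whose antigen was low in the SEC gate and high in the AEC gate, was at 208 CPM in young and 528 CPM in old SEC, and its part in the result was not tested. Nor was that of hematopoietic markers, of which 2 of 15 in young and 8 of 15 in old SEC reached 10 CPM, with sums of 98.5 CPM led by Fcer1g and 447 CPM led by Lyz2 and none at 0, or that of mural markers. Of these 5 of 10 in young and 9 of 10 in old SEC reached 10 CPM, with sums of 2585 and 2787 CPM, both led by Abcc9, and Cspg4 at 0 in young SEC. Rgs5 was at 0.4104 CPM in young and 202 CPM in old SEC, Acta2 at 1.23 and 33.1 CPM, and Myh11 at 2.92 and 37.4 CPM. The list was not uniform, as Abcc9, at 1668 and 1476 CPM, and Kcnj8, at 646 and 554 CPM, were lower in old SEC. In AEC the log2 ratio of Pdgfd was 0.64 [0.58, 0.69], short of 2-fold, with 0.72, 0.81 and 0.08 in ranges 1 to 3.

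The members past 2-fold in AEC rested on few cells. Pdgfa had a log2 ratio of −1.14 [−1.24, −1.05], which was −0.70 without the highest cell at each age and −1.79, −0.42 and −0.63 in ranges 1 to 3. Pdgfra, at 1.03 [0.78, 1.29], was carried by 2 young and 5 old AEC. Its log2 ratio was −1.82 in range 1, 3.51 in range 2 and at least 5.32 in range 3, where young cells had no count, and 3.00 without the highest cell at each age. Without cells with markers of the other lineage Pdgfra was at 0.833 CPM in young and 3.44 CPM in old AEC. The mesenchymal markers summed to 2909.6 CPM in young and 3639 CPM in old AEC, with 8 and 10 of 12 at 10 CPM. Their part in the result was not tested. Pdgfrb in AEC was at −0.69 [−0.80, −0.59], short of 2-fold, with −2.64, −0.42 and −0.03 in ranges 1 to 3. It was −1.12, past 2-fold, without the highest cell at each age and −0.06 without clusters E1 and E2. In AEC Pdgfb had a log2 ratio of 0.19 [0.15, 0.23] and in SEC of −0.07 [−0.13, −0.01], both short of 2-fold. The receptors in SEC were at 0.31 [0.18, 0.45] for Pdgfra and 0.16 [0.09, 0.24] for Pdgfrb, and at −0.50 and −0.25 without the highest cell at each age. Without cells with markers of the other lineage both passed 2-fold, at −1.87 for Pdgfra and 1.32 for Pdgfrb. The latter kept 1 old SEC of E2, at 3101 CPM, which held 1119 of the 2915 old Pdgfrb counts. Without clusters E1 and E2 Pdgfra and Pdgfrb were at 0.06 and 1.92, the latter past 2-fold. That value of Pdgfrb rested largely on 1 old SEC of E7, at 1867 CPM, which held 56.3% of the Pdgfrb counts of the cluster. Neither direction thus held in every setting.

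Megakaryocytes are blood cells, which the CD45 gate was set to remove, but their markers were present in old cells of both central marrow sorts. These markers summed to 17.6 CPM in young SEC, led by Pf4, and 683 CPM in old SEC, led by Itga2b. In MSC-L they summed to 13.2 CPM in young cells, led by Itga2b, and 1086 CPM in old cells, led by Ppbp. All 6 reached 10 CPM in both old groups and none did in the young groups, though none was at 0. Leaving out the cells that carried at least 3 of the 6 was chosen after seeing the data. The 6 such cells in old SEC held 251 of the 380 Pdgfa counts, and cluster E1 held the other 129. Without the 6 cells Pdgfa in old SEC was at 6.68 CPM, and its log2 ratio went from 0.42 to −1.03. Without clusters E1 and E2 it was instead past 2-fold and higher in old SEC. As a mean of CPM over cells it was also past 2-fold and higher, at 11.8 CPM in young and 32.6 CPM in old SEC. Pdgfd in old SEC was at 68.8 CPM without the 6 cells, with a log2 ratio of 1.85. The 8 such cells in old MSC-L held 71 of the 72 Pdgfb counts.

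A list of 36 genes of the pathway was read in the same way. It held 4 genes of ligand processing, 4 of binding and co-reception, 16 of signal transduction, 9 negative regulators and 3 related receptors. Of those with enough counts, past 2-fold in old MSC-L were 1 of 32 higher and 2 lower, against 15.4% and 12.8% of all genes. In MSC-S there were 1 of 33 higher and 3 lower, against 10.4% and 13.3% of all genes, and in AEC 0 of 34 higher and 3 lower, against 11.1% and 13.9% of all genes. SEC had 4 of 33 higher and 0 lower, against 14.6% and 8.8% of all genes. In mOPr there were 10 of 34 higher and 4 lower, against 25.8% and 20.7% of all genes, and in OPr 12 of 36 higher and 3 lower, against 27.2% and 21.1% of all genes. The median log2 ratio of the list was 0.12 in MSC-L, 0.01 in MSC-S, 0.16 in mOPr, 0.70 in OPr, −0.08 in AEC and 0.02 in SEC. The median over all genes was 0.02, −0.06, 0.12, 0.15, −0.03 and 0.06 in the same order. The OPr values include the 8 cells with hematopoietic markers. Without them 12 of 34 genes of the list were past 2-fold and higher and 2 lower, against 27.8% and 19.7% of all genes, and the median log2 ratio was 0.43, against 0.23 over all genes. The genes were not all the same ones, as Grb2, Map2k1, Csf1r and Flt3 were no longer among those higher with enough counts, and Shc1, Pik3r1, Cblb and Spry1 were. Without the 8 cells old OPr had 27.9 CPM of Map2k1, below the 48.96 CPM of young OPr, and 255 CPM of Spry1, where young OPr had 98.9 CPM.

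Among the negative regulators, Spry1, a feedback inhibitor of receptor tyrosine kinase signaling, was past 2-fold and higher in old mOPr, as were 25.8% of all genes, at 179 CPM in young and 609.6 CPM in old cells. So were Spry4, at 24.2 and 110.3 CPM, and the ubiquitin ligase gene Cblb, at 39.2 and 89.4 CPM. Their direction was not shared by all sorts. Spry4 was also higher in old OPr, at 6.51 and 52.6 CPM, but lower in old MSC-S, at 20.5 and 9.27 CPM. Without the highest cells its levels were 1.88 and 33.2 CPM in OPr and 13.4 and 5.09 CPM in MSC-S, in the same directions. Cblb was lower in old AEC, at 46.4 and 20.2 CPM. Nrp1, a co-receptor, was at 34.7 CPM in young and 446 CPM in old mOPr. In young and old MSC-L, Spry1 was at 475 and 525 CPM, Cblb at 171 and 184 CPM and Nrp1 at 711 and 854 CPM. These genes, and Spry4 too, were thus higher in young MSC-L than in young mOPr. In old cells Spry1 and Spry4 were higher in mOPr than in MSC-L. More old than young mOPr lay in M1 and M2, the clusters grouped with MSC-L. Sparc, a matricellular protein that binds PDGF-B, was lower in old cells of all 6 sorts. It was past 2-fold in the 3 endosteal mesenchymal sorts, at 6559 and 3247 CPM in young and old MSC-S, 12127 and 5591 CPM in mOPr and 23494 and 2769 CPM in OPr. Without their highest cells old mOPr had 3692 CPM and old OPr 1708 CPM. In MSC-S it was short of 2-fold without the highest cells, at 5549 and 3019 CPM. In the other sorts it was at 2853 and 1987 CPM in young and old MSC-L, 3246 and 1781 CPM in AEC and 3837 and 2847 CPM in SEC. Pdgfrl, a receptor-like gene, was lower in old cells of the osteoprogenitor sorts, at 279 and 113 CPM in young and old mOPr and 160.1 and 11.6 CPM in OPr, the last 5.98 CPM without its highest cell. Without the 8 cells with hematopoietic markers old OPr had 3691 CPM of Sparc and 15.4 CPM of Pdgfrl. Cluster M3 held 15 of 44 young and 1 of 29 old OPr. The part of the cluster make-up of mOPr and OPr in the differences of Spry1, Spry4, Cblb, Nrp1, Sparc and Pdgfrl was not tested.

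Plau, which encodes the urokinase that can activate PDGF-D, was the ligand-processing gene that differed with age in most sorts. It was lower in old AEC, at 134 CPM in young and 54.9 CPM in old cells, and in old MSC-L, at 6.05 and 0.205 CPM. Without the highest cells these levels were 111 and 23.1 CPM in AEC and 1.79 and 0.158 CPM in MSC-L, in the same direction. It was higher in old MSC-S, at 136 and 302 CPM, short of 2-fold at 105 and 202 CPM without the highest cells, and in old mOPr and OPr, at 67.7 and 153 CPM in mOPr and 5.59 and 117 CPM in OPr. In mOPr 1 cell held 98.7% of the young and 1 cell 80.8% of the old counts, and in OPr 1 cell 59.1% and 1 cell 64.4%. The size of both ratios thus rested on single cells, with levels without them of 0.924 and 30.3 CPM in mOPr and 2.35 and 43.3 CPM in OPr. In SEC the processing genes past 2-fold were Plat, at 0.456 CPM in young and 29.4 CPM in old cells, the latter 11.96 CPM without its highest cell, and Pcsk5, at 10.9 and 96.02 CPM, the former 6.87 CPM without its highest cell. The direction of the processing genes was thus not shared between the sorts.

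The related receptors Kit, Csf1r and Flt3, which are known from blood cells, were higher in old OPr, the group that held the 8 cells with hematopoietic markers. Kit was at 2.05 CPM in young and 216 CPM in old OPr, Csf1r at 0.886 and 22.2 CPM, and Flt3 at 0.102 and 14.8 CPM. Without the 8 cells old OPr had 190.4 CPM of Kit, 2.87 CPM of Csf1r and 0.0624 CPM of Flt3, so Csf1r and Flt3 came mostly from those cells. Single cells held 61.3% of the old Csf1r and 99.4% of the old Flt3 counts. Of the old Kit counts 63.6% lay in 1 cell that was not among the 8, without which old OPr had 82.5 CPM. The 8 cells held 1577 Kit counts and the other 21 held 3051, that cell included. Kit was also at 18.6 CPM in young and 218 CPM in old mOPr, or 9.07 and 74.4 CPM without the highest cells. In MSC-L it was at 0.57003 and 14.3 CPM, but 95.7% of the old counts lay in 1 cell. In AEC Kit was past 2-fold and lower in old cells, at 70.3 and 10.8 CPM, or 50.95 and 5.79 CPM without the highest cells, so its direction was not shared by all sorts.

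Over the 12 groups of population and age, the genes whose levels were most like each member on log2(CPM + 1) were found among 13236 genes by Pearson correlation. For Pdgfra they were Abca8a, Olfml2b and Bicc1, at correlations of 0.99, 0.98 and 0.97, and for Pdgfrb Fhl2, Fgfr2 and Ptprd, at 0.98, 0.98 and 0.97. The genes most like Pdgfb were Klhl4, Cyyr1 and Unc45b, at 0.99, 0.98 and 0.98, and those most like Pdgfc Camk1d, Lsp1 and B830012L14Rik, at 0.97, 0.96 and 0.95. For Pdgfd they were Gm4793, Cd200 and Unc13b, at 0.93, 0.93 and 0.92, and for Pdgfa Slc4a7, Tsc22d3 and Morn1, at 0.90, 0.88 and 0.88. Between the receptors the correlation was 0.79, and between Pdgfb and Pdgfra −0.79. The groups share populations across the ages, so these values describe the division between populations and are not 12 independent samples.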

How the data were processed

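The deposited values are whole-number counts per gene and single cell. The authors aligned the reads of each cell with GSNAP to the mouse genome, left out cells of low quality and tallied reads per gene with HTSeq, ignoring strand, without molecular identifiers. The members and gene lists were chosen with earlier results of these data known. Of 46078 gene entries, 270 that repeat a symbol were summed into it, and 37 mitochondrial genes were left out of the totals. No cell was removed and no doublet caller was run. Populations, ages and clusters come from the labels.

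Levels, shares, intervals and log2 ratios were computed in Python 3.11.15 with numpy 2.4.6, pandas 2.3.3 and scipy 1.17.1, and plots were drawn with matplotlib 3.10.9. Log2 ratios had no pseudocount, 3 counts stood in for 0, and none was given where both groups had at most 3 counts. The calculation was tested on simulated data. Exon lengths and positions came from a GENCODE annotation of GRCm38 that is later than the one used for counting. The values of 1 gene of the pathway list are not reported here. Named genes were the members, the antigens of the gates, genes of the pathway and marker lists, and per member the 3 genes with the highest Pearson correlation over the 12 groups among genes with at least 1000 counts and 10 cells at 10 CPM. Alternatives were cell means, a pseudocount, thinning each cell to 100000 counts, size factors, leaving cells out, single library ranges, no low-count filter, the deposited identity groups, at least 1 count after thinning for shares, and Spearman correlation.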

Additional observations from a re-analysis of the deposited data

How the results depend on the processing

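The mOPr over OPr log2 ratio of Pdgfra was positive at both ages under each alternative run. For young and old cells it was 2.72 and 2.79 as a mean of CPM over cells, 5.10 and 5.50 as a mean of log2(CPM + 1), 2.63 and 2.68 after thinning, 2.55 and 2.78 without the highest cell, 0.96 and 2.35 in range 1 and 4.70 and 2.77 in range 2. Without cells with hematopoietic markers it was 2.13 in old cells. Where an alternative's own construction does not show it, the cause was not tested.

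The count of members past 2-fold with age stayed within 1.5 times of 3 in mOPr. The members counted there were not always the same, as Pdgfra was short of 2-fold in range 2, at 0.79. In MSC-L the count went from 1 to 0 with means of log2(CPM + 1), 0 after thinning, 0 without the highest cell and 2 in range 2. In MSC-S it went from 1 to 0, 0 and 2 under the first 3 of these and to 2 with the identity group. In OPr it went from 1 to 3 with means of CPM, 0 with means of log2(CPM + 1), 2 after thinning, 2 without the highest cell, 2 without cells with hematopoietic markers, 2 in range 1, 3 in range 2 and 2 with the identity group. With size factors the OPr count was again 1, but of Pdgfa, at −1.07, in place of Pdgfra. Without the highest cell the AEC count was again 2, with Pdgfrb, at −1.12, in place of Pdgfa. In AEC it went from 2 to 0 with means of CPM, 1 with means of log2(CPM + 1), 1 with a pseudocount of 1 CPM, 0 after thinning, 1 in range 2 and 0 in range 3. In SEC it went from 1 to 2 with means of CPM, 0 with means of log2(CPM + 1), 2 after thinning and 3 without cells with markers of the other lineage. It was 3 without clusters E1 and E2 and 2 without cells with megakaryocyte markers, both chosen after seeing the data. Thinning leaves fewer counts for the same minimum of 100. The identity groups include none for mOPr.

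Among the members past 2-fold, the direction turned for Pdgfb in MSC-L in range 1, at 6.42, for Pdgfd in MSC-S in range 2, at 0.43, and for Pdgfra in AEC in range 1, at −1.82, and the cause was not tested. Members short of 2-fold turned as well, in single ranges and under other alternatives. Pdgfa in MSC-L, at −0.54 over all cells, was at 1.64 in range 1 and −1.33 in range 2, past 2-fold in opposite directions. Of 72 shares of cells, 71 were within their interval when taken as at least 1 count after thinning. By Spearman correlation, 2 of the 3 named genes for Pdgfa and 1 of 3 for Pdgfd were among the 3 most similar, and 0 for the other members. No paired analysis was possible because the labels assign no cell to a mouse, so that each population at each age was treated as 1 sample.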
